A study of Mus musculus with 6 samples.

Results

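The 7 genes described here encode subunits of the GABA-A receptor. They were matched by gene symbol to the Ensembl identifiers of the count tables, and they are 7 of the 54752 genes listed there. Gabra2 and Gabra3 encode the alpha2 and alpha3 subunits, which are found mostly at synapses. Gabra4, Gabra5 and Gabrd encode the alpha4, alpha5 and delta subunits, which are found largely outside synapses. Gabrb1 and Gabrb2 encode the beta1 and beta2 subunits, which join receptors of either kind.

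RNA was taken from the right hippocampus of wild-type male C57BL/6 mice aged 14 weeks, 3 weeks after surgery. In bilateral carotid artery stenosis (BCAS, n = 3) a microcoil was placed around each common carotid artery, with the narrower coil on the right, the side that was sequenced. Sham mice (n = 3) had the same operation without coils. Each mouse gave 1 RNA-seq library, and the mice are numbered 1 to 3 within each group by their labels. The comparison asks how prolonged low blood flow to the brain changes hippocampal transcripts.

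GABA-A receptors are chloride channels that GABA, the main inhibitory transmitter of the brain, opens. Most combine alpha and beta subunits with a gamma or a delta subunit. Receptors at synapses carry brief inhibitory currents, and receptors outside synapses respond to low ambient GABA with a lasting tonic current. The alpha5 subunit is a characteristic subunit of hippocampal pyramidal neurons, alpha4 pairs with delta in dentate granule cells, and beta subunits are needed to build a working channel.

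The alpha subunit also sets the response to benzodiazepines, and the codon on which this depends separates the 4 alpha members. It is shown here because it divides the extrasynaptic alpha genes from each other. Below are 33 bases of coding sequence around this codon, 5′ to 3′ on the coding strand, read from the GENCODE transcripts of mm10, with the codon in capitals.
Gabra2: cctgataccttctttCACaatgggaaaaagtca
Gabra3: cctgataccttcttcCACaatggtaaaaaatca
Gabra4: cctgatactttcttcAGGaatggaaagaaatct
Gabra5: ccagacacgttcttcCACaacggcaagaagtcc
These stretches lie in exon 5 of 10 of Gabra2 (chr5:71014490-71014522), exon 5 of 10 of Gabra3 (chrX:72501153-72501185), exon 4 of 9 of Gabra4 (chr5:71641137-71641169) and exon 5 of 10 of Gabra5 (chr7:57488876-57488908), all on the minus strand. Gabra2, Gabra3 and Gabra5 carry the histidine codon CAC, and Gabra4 carries the arginine codon AGG, which makes alpha4 receptors insensitive to classical benzodiazepines. Counted from the 5′ end of the stretch, the codon of Gabra4 differs from that of Gabra5 by C16A, A17G and C18G. Over the whole translated proteins, Gabra2, Gabra3 and Gabra5 were 72.0% to 73.8% identical to each other, and Gabra4 was 61.2% to 61.8% identical to each of them. Thus the extrasynaptic alpha5 protein is closer in sequence to the synaptic alpha2 and alpha3 proteins than to alpha4.

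Gabra4 and Gabrb1 sit head to head on chromosome 5. Gabra4 spans 71569749 to 71658308 on the minus strand and Gabrb1 spans 71658113 to 72149037 on the plus strand, and their exons share 46 bases. Gabra2 lies on the same chromosome at 70957597 to 71095849, Gabra3 on chromosome X at 72432681 to 72656848, Gabra5 on chromosome 7 at 57407672 to 57510059, Gabrd on chromosome 4 at 155384980 to 155398112, and Gabrb2 on chromosome 11 at 42419757 to 42629028. Gabra5 shares 148 exonic bases, 4.98% of its exon length, with the antisense gene Gm9962. Reads on shared exons were counted for neither gene. The libraries held 29652456 to 35607098 counts each, and the members had between 670 and 8088 counts per library, so that all 7 passed the filter on low counts and none was near the limit of detection.

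Levels are given as CPM, the counts of a gene scaled to a common library size by TMM, and differences are log2 fold changes of BCAS against Sham with their standard error (SE). The test was the quasi-likelihood test of edgeR, with Benjamini-Hochberg adjustment over 18617 genes. With 3 mice per group, the smallest P that an exact permutation test of a single gene can give is 0.1. Gabra5, Gabra4 and Gabra2 fell in BCAS mice, no member rose, and Gabra3, Gabrd, Gabrb1 and Gabrb2 did not pass the test. Among all tested genes, 13.2% fell and 3356 of the 18617 rose by the same test. Gabra5 was the only member to pass the study's thresholds for a differentially expressed gene (DEG), which ask for an adjusted P under 0.05 together with a change past 1 on the log2 scale, and 0.999% of all tested genes did so in the downward direction. In 3 of the 7 genes, every BCAS mouse lay below every Sham mouse, against 22.7% of all tested genes. The fold changes of all 7 members were below 0, with a median of -0.31, whereas 48.2% of all tested genes were below 0 and their median was 0.018.

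Among the extrasynaptic subunits, Gabra5 had the most transcript and the largest fall of the 7 members. Its level was 225, 214 and 236 CPM in Sham mice 1 to 3 and 121, 109 and 70.2 CPM in BCAS mice 1 to 3. The groups did not overlap, and BCAS mouse 3 was the lowest of the 6 libraries. Sham mice averaged 225 ± 11.1 CPM and BCAS mice 100.1 ± 26.6 CPM (SD, n = 3 each), a level 55.5% lower. The log2 fold change was -1.17 (SE 0.17, 95% interval -1.56 to -0.77), and edgeR gave an adjusted P of 0.00142. Without BCAS mouse 3 the log2 fold change was -0.97, which still passed the test but no longer the fold threshold of a DEG. In bulk tissue, fewer cells of a type and less RNA per cell cannot be told apart, which holds for every value given here.

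Gabra4 was measured at 129, 139 and 133 CPM in Sham mice and at 102, 96.2 and 85.2 CPM in BCAS mice. The groups did not overlap, and the spread within each was small. The mean went from 134 ± 4.99 CPM (SD, n = 3) to 94.5 ± 8.59 CPM (SD, n = 3), and the log2 fold change was -0.50 (SE 0.083, adjusted P = 0.00250 by edgeR). Gabra4 kept passing the test when any of the 6 libraries was left out.

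Gabrd, the delta subunit that partners alpha4, had the lowest counts of the members. Its level was 23.5, 33.3 and 27.6 CPM in Sham mice and 21.4, 22.2 and 24.9 CPM in BCAS mice. Sham mouse 1 lay below BCAS mouse 3, so that the groups overlapped. The mean was 28.1 ± 4.94 CPM in Sham and 22.8 ± 1.83 CPM in BCAS mice (SD, n = 3). The log2 fold change of -0.30 (SE 0.14, 95% interval -0.61 to 0.0095) did not pass the test (adjusted P = 0.128 by edgeR). The 3 extrasynaptic genes therefore ranged from a level 55.5% lower to a difference that did not pass the test, with overlapping groups.

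Of the synaptic alpha subunits, Gabra2 fell and Gabra3 did not pass the test. Gabra2 was at 86.4, 75.5 and 89.1 CPM in Sham mice and at 68.8, 65.0 and 48.8 CPM in BCAS mice. The groups did not overlap, although Sham mouse 2 and BCAS mouse 1 were close. The mean was 83.7 ± 7.20 CPM in Sham and 60.9 ± 10.6 CPM in BCAS mice (SD, n = 3), with a log2 fold change of -0.46 (SE 0.13, adjusted P = 0.0254 by edgeR). This call was lost without Sham mouse 1 (adjusted P = 0.0861) and without Sham mouse 3 (adjusted P = 0.0956).

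Gabra3 was at 88.6, 79.7 and 101 CPM in Sham mice and at 59.0, 95.3 and 62.7 CPM in BCAS mice. BCAS mouse 2 lay within the Sham range, and the other two BCAS mice lay below it. The mean was 89.6 ± 10.5 CPM in Sham and 72.3 ± 19.99 CPM in BCAS mice (SD, n = 3), with a log2 fold change of -0.31 (SE 0.17, 95% interval -0.70 to 0.084, adjusted P = 0.210 by edgeR). Without BCAS mouse 2 the log2 fold change was -0.57 and passed the test (adjusted P = 0.00381).

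The beta subunits had the smallest fold changes of the members, and neither passed the test. Gabrb1 was at 208, 186 and 182 CPM in Sham mice and at 185, 163 and 156 CPM in BCAS mice, and only BCAS mouse 1 reached into the Sham range. Its log2 fold change was -0.19 (SE 0.091, 95% interval -0.40 to 0.012, adjusted P = 0.139 by edgeR). Gabrb2 was at 98.0, 89.9 and 68.0 CPM in Sham mice and at 73.9, 71.3 and 65.3 CPM in BCAS mice. Here Sham mouse 3 lay among the BCAS mice. The log2 fold change was -0.28 (SE 0.13, 95% interval -0.57 to 0.0076, adjusted P = 0.127 by edgeR), and without Sham mouse 3 it was -0.42 and passed the test (adjusted P = 0.0178). The plot of each subunit by mouse shows these overlaps.

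**Figure D1:**
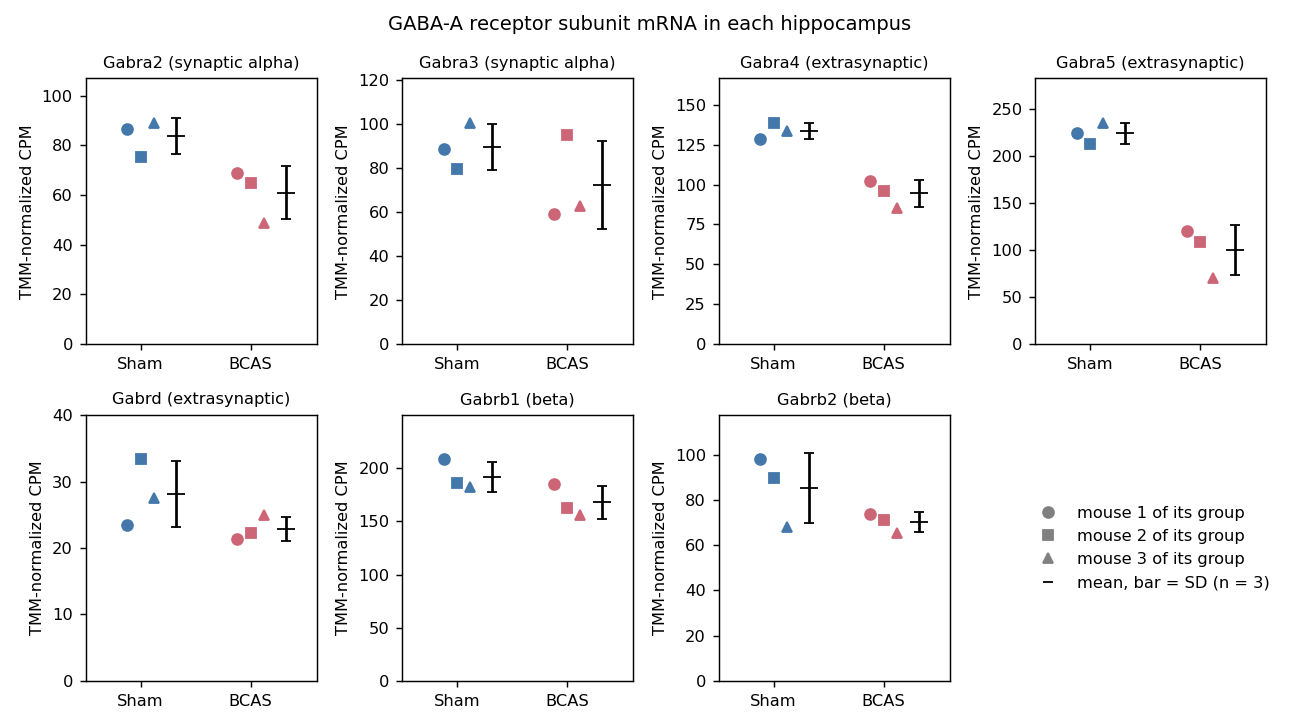
TMM-normalized CPM of each of the 7 subunit genes (vertical axes from 0) in 3 Sham and 3 BCAS mice. Each point is 1 mouse and bars are the mean ± SD (n = 3). Gabra2, Gabra4 and Gabra5 have no BCAS mouse within the Sham range, and Gabra5 falls from 225 to 100.1 CPM on average.

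The synaptic and extrasynaptic subunits were then compared as groups. The median log2 fold change was -0.38 for the 2 synaptic alpha genes, -0.50 for the 3 extrasynaptic genes and -0.24 for the 2 beta genes. Without BCAS mouse 2, which had the high Gabra3 level, the first 2 medians were -0.54 and -0.52. In each mouse, the mean log2 CPM of Gabra2 and Gabra3 was subtracted from that of Gabra4, Gabra5 and Gabrd, which removes the scaling of the library. This difference was 0.0093, 0.36 and 0.010 in Sham mice 1 to 3 and 0.011, -0.35 and -0.061 in BCAS mice 1 to 3. Sham mice 1 and 3 and BCAS mouse 1 were nearly equal, so that the groups overlapped. The BCAS mean was lower by -0.26 on the log2 scale, which is similar to the SD within each group (0.20 in Sham and 0.19 in BCAS mice, n = 3). A shift between the extrasynaptic and the synaptic class as a whole was therefore not resolved with 3 mice per group.

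Within the extrasynaptic class, Gabra5 separated from the other members. The log2 ratio of Gabra5 to Gabra2 was 1.38, 1.499 and 1.40 in Sham mice and 0.81, 0.75 and 0.52 in BCAS mice, and the groups did not overlap. The log2 ratio of Gabra5 to Gabra4, its fellow extrasynaptic alpha gene, was 0.81, 0.62 and 0.82 in Sham mice and 0.25, 0.18 and -0.28 in BCAS mice, again without overlap. The ratios of Gabra5 to Gabra3, Gabrd, Gabrb1 and Gabrb2 did not overlap either, and the group means of the 6 ratios differed by -1.01 to -0.70. The log2 ratio of Gabra4 to Gabra2, by contrast, was 0.68 ± 0.17 in Sham and 0.65 ± 0.14 in BCAS mice (SD, n = 3) and overlapped. Relative to Gabrb1, Gabra4 (log2 ratio -0.52 ± 0.15 in Sham and -0.83 ± 0.060 in BCAS mice) and Gabra2 (-1.20 ± 0.15 and -1.48 ± 0.18) were also lower without overlap. The 6 ratios all contain the same Gabra5 values, so that they are not separate observations. The share of all gene pairs without overlap was not computed. Members of 1 library share its RNA, and these ratios are descriptions without a test.

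Levels of different genes are compared per exon length, as CPM per kilobase. In Sham mice Gabra5 stood at 75.6 ± 3.75 CPM per kilobase (SD, n = 3), far above the next genes, Gabra3 at 22.8 ± 2.68 and Gabra4 at 22.0 ± 0.820. Gabrb1 (13.9 ± 1.02), Gabrb2 (13.4 ± 2.44), Gabra2 (10.9 ± 0.942) and Gabrd (9.79 ± 1.72) followed. Gabra3 and Gabra4 overlapped, as did each neighbouring pair from Gabrb1 down to Gabrd. In BCAS mice the order of the means was the same, but Gabra5 was at 33.7 ± 8.93 CPM per kilobase, and its lowest mouse (23.6) lay below the highest mouse of Gabra3 (24.3).

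Expressed as a share of the 7 summed levels per kilobase, Gabra5 took 44.9% ± 1.17 in Sham mice (43.8% to 46.1%) and 31.2% ± 4.78 in BCAS mice (26.2% to 35.7%), without overlap. Shares within a sum are tied to each other, so that a lower share of Gabra5 raises the others. The share of Gabrb1 went from 8.25% to 11.5% and that of Gabrb2 from 7.98% to 10.4%, both without overlap. In CPM, the groups overlapped for both genes. How often shares of other genes would separate was not computed. Gabra2 went from 6.49% to 7.44%, also without overlap, while its own CPM fell.

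**Figure D2:**
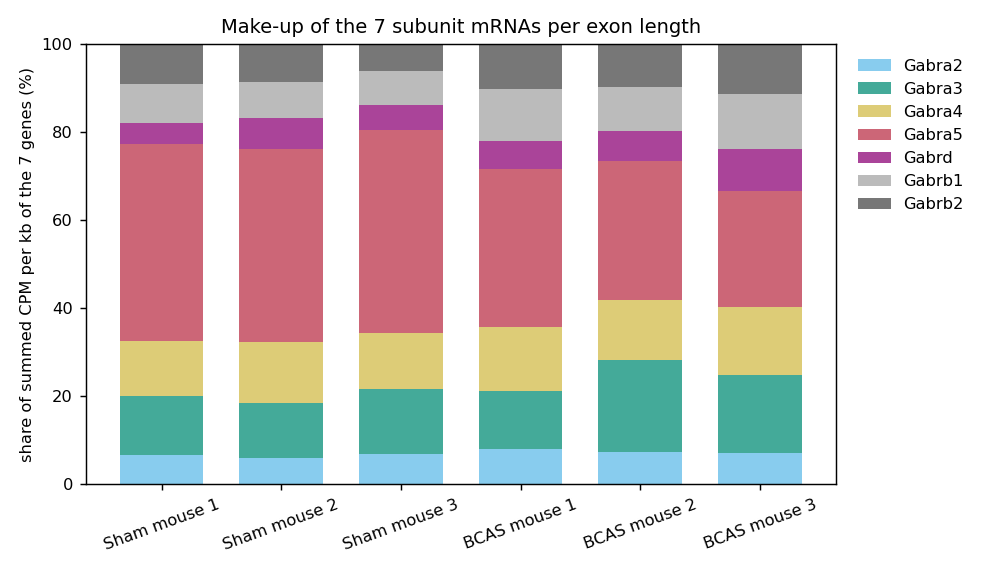
Share of each subunit gene in the summed CPM per kilobase of the 7 genes (percent, vertical axis), 1 stacked bar per mouse. The Gabra5 segment takes 43.8% to 46.1% of each Sham bar and 26.2% to 35.7% of each BCAS bar.

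Neuronal and glial markers moved between the same groups. The 12 general neuron genes included 9 that fell and 0 that rose, their median was -0.58 on the log2 scale, and their summed level was 8021 to 8784 CPM in Sham and 4631 to 6597 CPM in BCAS mice. Markers of CA1 pyramidal cells (5 of 6 lower, summed 796 to 984 against 479 to 645 CPM), of CA2 and CA3 (4 of 5 lower, 197 to 205 against 79.5 to 135 CPM) and of interneurons (8 of 12 lower, 1372 to 1557 against 858 to 1057 CPM) fell too. Dentate granule markers had 2 of 6 lower and a summed level that overlapped (231 to 344 against 181 to 352 CPM). All 9 microglial markers rose (330 to 351 against 2068 to 3353 CPM), as did 6 of 7 astrocyte markers (2209 to 2338 against 6508 to 6914 CPM) and 4 of 6 endothelial markers (245 to 270 against 331 to 365 CPM), and 0 of 6 oligodendrocyte markers passed the test. Choroid plexus markers varied within both groups, from 71.1 to 4093 CPM in Sham and from 40.9 to 5944 CPM in BCAS mice, and 2 of 5 thalamic markers rose (75.2 to 88.01 against 82.0 to 155 CPM). BCAS mouse 3, which had the lowest Gabra5, also had the lowest neuron sum of the 6 libraries (4631 CPM). It had the highest microglial (3353 CPM), oligodendrocyte (8796 CPM) and thalamic (155 CPM) sums. Its astrocyte sum (6761 CPM) lay between those of the other BCAS mice. No listed marker was at 0 in all libraries. The part of this shift in the subunit values was not tested beyond the scaling that follows.

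When the libraries were scaled to the 12 neuron genes instead of TMM, Gabra5 was the 1 member that stayed lower. Its log2 fold change was -0.61 (95% interval -0.92 to -0.29, adjusted P = 0.00572 by edgeR), and 0.526% of all tested genes fell by this test. As a share of the summed CPM of the neuron genes, Gabra5 was 2.81%, 2.59% and 2.68% in Sham mice and 2.14%, 1.65% and 1.52% in BCAS mice, without overlap. The other 6 members overlapped on this measure and had fold changes above 0. The share of all tested genes without overlap on this measure was not computed. Those of Gabra2 (0.11), Gabra4 (0.086), Gabra3 (0.26), Gabrb2 (0.30) and Gabrd (0.31) did not pass the test, with adjusted P values of 0.170 to 0.591 by edgeR. Gabrb1 was higher at 0.39 (95% interval 0.071 to 0.72, adjusted P = 0.0406). This scaling moves the median of all tested genes from 0.018 to 0.61 and calls 54.4% of them higher, so that the 6 members with positive values lay below the median gene. Relative to the neuron genes, the differences of Gabra2 and Gabra4, which fell under TMM, had 95% intervals of -0.20 to 0.43 and -0.21 to 0.38. On the same scale, 2 of 6 CA1, 2 of 5 CA2 and CA3, 2 of 12 interneuron and 1 of 6 dentate granule markers were lower. In these lists, 3 interneuron, 2 dentate granule, 0 CA1 and 0 CA2 and CA3 markers were higher. The lower markers lay on both sides of Gabra5, such as Fibcd1 at -1.38 and Cck at -0.45. A lower value on this scale was thus not particular to Gabra5, and its cause was not tested.

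**Figure D3:**
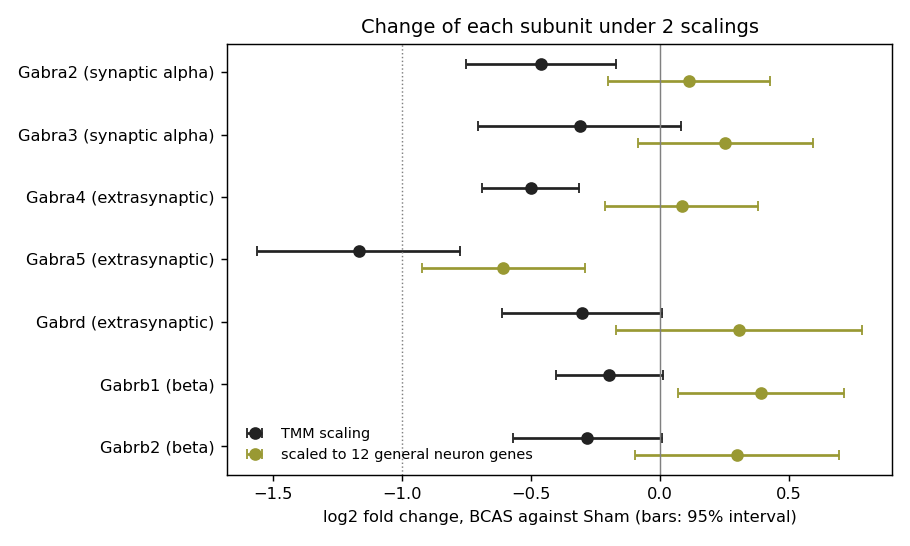
Log2 fold change of BCAS against Sham (horizontal axis) for each subunit under TMM scaling (black) and under scaling to 12 general neuron genes (olive). Points are estimates, bars are 95% intervals, and the dotted line marks -1. Gabra5 lies below 0 under both (-1.17 and -0.61), and the other 6 genes move from below to above 0.

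The wider GABA system was examined in the same fit, in which 13.2% of all tested genes fell and 3356 of the 18617 rose. Scaled to the 12 neuron genes, 0.526% of all tested genes were lower. A count of 0 lower genes in a short list is near that share. The tables hold 19 genes for GABA-A receptor subunits by symbol, 12 of them outside the members, and 8 of these 12 passed the filter on low counts. Of these 8, 4 fell and 0 rose, with a median log2 fold change of -0.43 and a range of -0.74 to 0.033. In their summed level, Sham mice were at 1104 to 1133 CPM and BCAS mice at 654 to 811 CPM. Scaled to the 12 neuron genes, which calls 54.4% of all tested genes higher, 0 of these 8 were lower and 1 was higher, with a median of 0.16.

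Of 8 genes for making and transporting GABA, 3 fell and 0 rose, against 13.2% of all tested genes that fell. The 3 were Gad1 (log2 fold change -0.46, adjusted P = 0.00311) and Gad2 (-0.38, adjusted P = 0.00587), which make GABA from glutamate, and Slc32a1 (-0.46, adjusted P = 0.0157), which loads it into vesicles. These 3 genes are also in the interneuron list. The GABA transaminase gene Abat did not pass the test (0.067, SE 0.071, adjusted P = 0.510). Scaled to the neuron genes, 0 of the 8 were lower and 5 were higher, with a median of 0.40. Among all tested genes, this scaling called 54.4% higher, with a median of 0.61. Gad1 (0.13), Gad2 (0.21) and Slc32a1 (0.14) then lay above 0 without passing the test, and Abat was higher (0.67, adjusted P = 0.00369).

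Of 16 genes that anchor or traffic GABA-A receptors, 9 fell and 1 rose, against 13.2% of all tested genes that fell. Their median was -0.30, with a range of -1.06 to 0.33. The gene with the largest fall was the 1 DEG of the list, and 0.999% of all tested genes were DEGs in that direction. Gphn, which encodes the postsynaptic scaffold gephyrin, fell by 0.47 on the log2 scale (adjusted P = 0.00195). Nsf, a general factor of membrane fusion, fell by 0.65 and Shisa7, an auxiliary protein of GABA-A receptors, by 0.70. The 1 that rose was Gabarap (0.33, adjusted P = 0.0119), which carries receptors to the surface and also serves in autophagy. Scaled to the neuron genes, 0 of the 16 were lower and 7 were higher, with a median of 0.29. The median of all tested genes was then 0.61, and 54.4% of them were higher. Gphn (0.12), Nsf (-0.074) and Shisa7 (-0.14) did not pass the test on that scale, and Gabarap was higher (0.93). The gene with the largest fall was at -0.51 there and did not pass the test (adjusted P = 0.0572 by edgeR).

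Of 5 genes of the GABA-B receptor, the metabotropic receptor for GABA, 3 fell and 1 rose. Among all tested genes, 13.2% fell. Both receptor subunits fell, Gabbr1 by 0.50 and Gabbr2 by 0.54 on the log2 scale, as did the auxiliary subunit gene Kctd8 (-0.54), whereas Kctd12 rose (0.30). Scaled to the neuron genes, 0 of the 5 were lower and 1, Kctd12, was higher. Gabbr1 (0.083), Gabbr2 (0.025) and Kctd8 (0.053) did not pass the test (adjusted P of 0.513 to 0.857). This scaling called 54.4% of all tested genes higher, with a median of 0.61. Among 4 chloride transport genes, Slc12a5, which encodes the neuronal chloride exporter KCC2, fell by 0.40 (adjusted P = 0.0314), and the kinase gene Wnk1, whose product acts on chloride cotransporters, rose by 0.59 (adjusted P = 0.00783). The importer Slc12a2 (0.62, SE 0.25, adjusted P = 0.0937) and the kinase gene Stk39 (0.067, SE 0.20, adjusted P = 0.835) did not pass the test. Scaled to the neuron genes, 0 of the 4 were lower and 3 were higher, and Slc12a5 was at 0.17 and did not pass the test (adjusted P = 0.181). P values in these paragraphs are from edgeR fits over all tested genes.

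**Figure D4:**
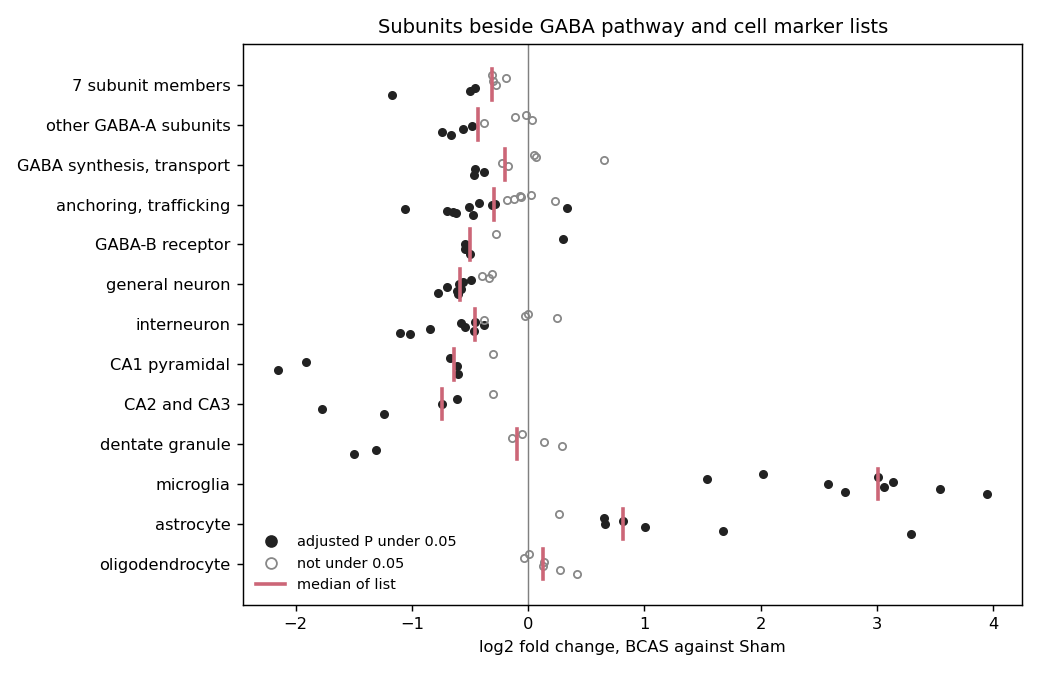
Log2 fold change of BCAS against Sham (horizontal axis) for each tested gene of the subunit, GABA pathway and cell marker lists (rows). Filled points have an adjusted P under 0.05 and red bars mark the median of a list. The subunit median of -0.31 lies between the general neuron median of -0.58 and 0, and Gabra5 at -1.17 lies apart from the other members.

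The genes with the most similar profile over the 6 libraries were found for each member by the Euclidean distance of mean-centred log2 CPM among 15631 genes with at least 1 CPM on average. This measure includes the group difference. For Gabra5 they were Matn2 (distance 0.106), Cnih2 (0.163) and Rgs14 (0.167), with log2 fold changes of -1.16, -1.06 and -1.24. Matn2 encodes a matrix protein, Cnih2 an auxiliary protein of AMPA receptors, and Rgs14 a regulator of G-protein signaling that is in the CA2 and CA3 marker list. For Gabra4 they were Pip4k2c (0.0726), Pomk (0.0739) and Hexim2 (0.0768), and for Gabra2 Numbl (0.101), Gm42829 (0.103) and D630033A02Rik (0.122). The profile of Gabrd, which had the fewest counts, had its nearest gene, Mrpl14, at 0.168. Gabra3 was closest to Hrh3, Wfs1 and Mrpl16, and Wfs1 is one of the CA1 markers. Gabrb1 was closest to Enah (0.0415), Peg3 and Myef2, and Gabrb2 to Gm43267, Xkr4 and Nphp4. None of the 7 members was among the 3 nearest genes of another member.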

How the data were processed

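The study sequenced hippocampal RNA from 3 sham and 3 BCAS mice, and each library was assigned to its group by its sample label. Per the study's methods, reads were trimmed with Trim Galore, aligned with HISAT2 to mm10 and counted per gene with featureCounts. The authors deposited raw counts per gene without normalization. The file headers name featureCounts 2.0.3 with a GENCODE vM20 annotation, whereas the methods name version 1.6.3 with RefSeq. Per the file headers, strand was not used, mates were counted separately, and reads with several alignments or several overlapping genes were left out. Libraries held 29652456 to 35607098 counts.

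Genes kept by filterByExpr (18617 of 54752) were normalized by TMM and compared with the quasi-likelihood test of edgeR 4.0.16 in R 4.3.3. P values were adjusted by Benjamini-Hochberg over all tested genes. The standard error of a log2 fold change was taken from its F statistic. Log2 CPM used a prior count of 2. A gene with 3 counts would lie at 0.0875 to 0.0995 CPM, which covers counting error only. The steps were tested on simulated data. Alternatives used DESeq2 1.42.0, limma-voom (limma 3.58.1), RLE factors, library totals, scaling to 12 neuron genes, other filters, a replicate block and leaving out each library. The 7 members, the gene lists and the alternatives were chosen with earlier results of these data known. Named genes were the members, up to 4 genes of smallest adjusted P per pathway list, and the 3 nearest profiles per member, except that some genes this rule selects are not reported here. Marker genes are named where a sentence turns on them. Sequences and gene models came from the mm10 GENCODE reference (release vM21 for transcripts), and no protein sequence table was used here.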

Additional observations from a re-analysis of the deposited data

How the results depend on the processing

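Over 14 alternative settings, Gabra5 stayed lower and past the threshold in each (adjusted P 1.77e-11 to 0.0106). The number of members lower ran from 1 to 4. Scaling to the 12 neuron genes turned the log2 fold changes of Gabra2 (0.11), Gabra3 (0.26), Gabra4 (0.086), Gabrd (0.31), Gabrb1 (0.39) and Gabrb2 (0.30) above 0, and the medians to 0.18 for synaptic alpha, 0.086 for extrasynaptic and 0.35 for beta genes. It left 1 member lower, 1 higher and 0 DEGs, and 98 of all tested genes lower against 2463 under TMM and 1788 under library totals. The extrasynaptic minus synaptic difference was -0.55 as a ratio of summed counts per kilobase, which weights Gabra5 most, against -0.26 as a mean of logs.

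Leaving out each library gave 2 to 4 members lower and 0 to 1 DEGs, with 0 without BCAS mouse 3. The medians ran from -0.54 to -0.27 for synaptic alpha, -0.56 to -0.44 for extrasynaptic and -0.33 to -0.15 for beta genes, and the extrasynaptic minus synaptic difference from -0.33 to -0.14. Genes lower among all tested ran from 1260 without Sham mouse 3 to 3092 without BCAS mouse 2. By the labels, both groups share replicate numbers 1 to 3, whereas the file headers number the BCAS columns 2 to 4. Paired by the labels, same-numbered mice did not deviate together (residual correlations 0.0360, -0.314 and -0.158). With the number as a replicate block, 3 members were lower, Gabra5 at -1.20 (adjusted P = 0.00445 by edgeR), and 1750 genes fell. The cause of these changes was not tested. With 3 mice per group, intervals of the 4 members that did not pass still include falls of 0.40 to 0.70 on the log2 scale.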
